A study of Homo sapiens with 4 samples.

Results

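The APOBEC3 cytidine deaminases are the genes APOBEC3A, APOBEC3B, APOBEC3C, APOBEC3D, APOBEC3F, APOBEC3G and APOBEC3H. They were taken by symbol from the deposited table, where each symbol occurs once, giving 7 of 60623 genes. RNA-seq of T24, an established human bladder carcinoma line, covered 2 control libraries and 2 from cells made to overexpress CBX7, a chromobox protein of Polycomb repressive complex 1. All cells grew in RPMI medium with serum. The overexpression plasmid described in the paper was pCDH-3xFLAG carrying full-length CBX7. The labels name neither the vector carried by the control cells nor whether the cells were a clone or a pool. Nothing states that the libraries of a group came from separate cultures, so p-values measure only the spread between these libraries, which may be technical.

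APOBEC3 enzymes convert cytosine to uracil in single-stranded DNA and are known for restricting retroviruses and transposons. Most of them prefer a cytosine that follows a thymine, whereas APOBEC3G prefers one that follows another cytosine. Uracils that they leave in the genome are a source of C-to-T and C-to-G mutations, and the mutational signature attributed to APOBEC3 activity is common in bladder cancer, with APOBEC3A and APOBEC3B the members most often linked to it. APOBEC3A, APOBEC3C and APOBEC3H carry a single deaminase domain, while APOBEC3B, APOBEC3D, APOBEC3F and APOBEC3G carry a pair of them, of which the carboxy-terminal one is the catalytic domain.

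T24 cells held RNA of 5 of the 7 members. APOBEC3C and APOBEC3B were by far the most abundant and together made up 80.2% ± 1.15 (SD over the 4 libraries) of the summed APOBEC3 level, APOBEC3G followed, and APOBEC3D and APOBEC3F were lower. APOBEC3A and APOBEC3H had at most 1.02 counts in any library. In bulk RNA, fewer cells that express a gene and less of its RNA per cell cannot be told apart. CBX7 overexpression was accompanied by no called change in any member. The 5 members that could be tested had log2 fold changes between 0.08 and 0.20, each smaller than its own standard error.

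The members form a cluster on chromosome 22, all on the plus strand, in the order A, B, C, D, F, G, H. In GENCODE 29 on GRCh38 the cluster runs from the start of APOBEC3A (ENSG00000128383) at 38952741 to the end of APOBEC3H (ENSG00000100298) at 39104067, which is 151 kb. The gene model of APOBEC3A ends at 38992778 and so covers most of APOBEC3B (ENSG00000179750, 38982347 to 38992804), since some of its transcripts run on into that gene. APOBEC3C (ENSG00000244509) lies at 39014083 to 39020352, APOBEC3D (ENSG00000243811) at 39021113 to 39033276, APOBEC3F (ENSG00000128394) at 39040604 to 39053910 and APOBEC3G (ENSG00000239713) at 39077005 to 39087743. A further protein-coding locus, AL022318.4, spans 39014363 to 39033276 and overlaps both APOBEC3C and APOBEC3D. The CBX7 gene itself, on the minus strand at 39120167 to 39152674, has its nearest edge 16.1 kb beyond APOBEC3H, and CBX6 lies 80.4 kb before APOBEC3A.

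**Figure D1:**
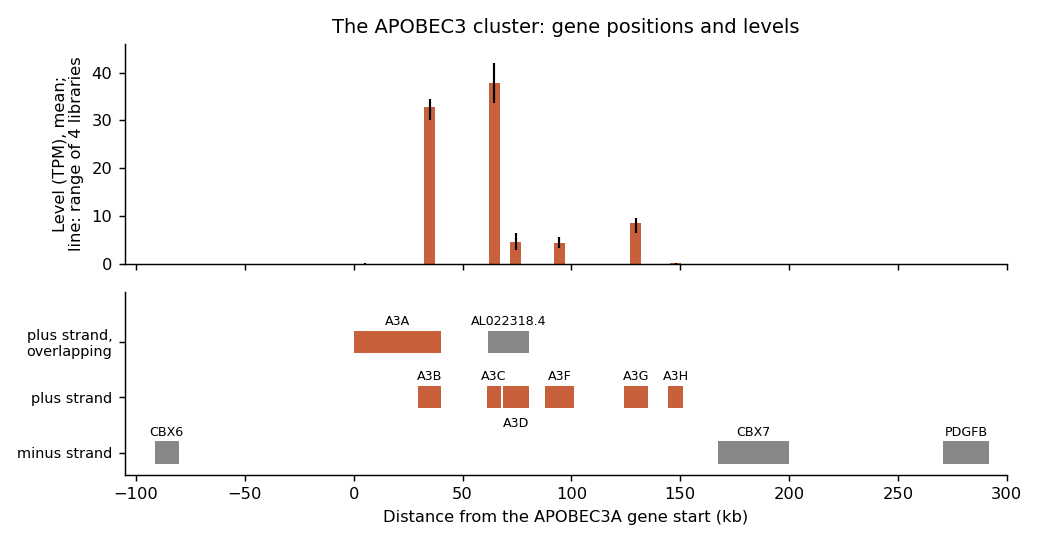
Upper panel: mean level over the 4 libraries (TPM) of each APOBEC3 gene, drawn at its place in the cluster, with a line from the lowest to the highest library. Lower panel: gene models by strand, in kb from the APOBEC3A gene start, with APOBEC3 shortened to A3. APOBEC3B and APOBEC3C stand at 32.7 and 37.8 TPM, while the genes at both ends of the cluster are near 0.

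The coding sequences are alike enough that a short read cannot always be given to 1 member. This bears on the counts of APOBEC3A, APOBEC3B, APOBEC3D, APOBEC3F and APOBEC3G. The closest stretches are shown, read from GENCODE 29 transcripts (GRCh38). Each is 90 bases of coding sequence, 5′ to 3′, with capitals marking bases that differ from the first sequence of its set. In the first set, coding bases 722 to 811 of APOBEC3B, which span exons 5 and 6 of 8 (chr22:38989609-38991419), are identical to coding bases 173 to 262 of APOBEC3A in its exons 2 and 3 of 5 (chr22:38959685-38961474). The same stretch of APOBEC3G, coding bases 734 to 823 (chr22:39083883-39086366), differs at 26 bases.
APOBEC3B: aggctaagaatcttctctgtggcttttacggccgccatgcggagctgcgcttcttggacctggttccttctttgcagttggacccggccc
APOBEC3A: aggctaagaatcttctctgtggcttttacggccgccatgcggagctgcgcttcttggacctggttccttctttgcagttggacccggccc
APOBEC3G: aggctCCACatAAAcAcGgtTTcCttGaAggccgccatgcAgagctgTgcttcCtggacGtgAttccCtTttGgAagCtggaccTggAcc

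From there to the end of the coding sequence, the 90-base stretch that differed most between APOBEC3B and APOBEC3A differed little. Coding bases 963 to 1052 of APOBEC3B, in exons 6 and 7 (chr22:38991571-38992067), and coding bases 414 to 503 of APOBEC3A, in exons 3 and 4 (chr22:38961626-38962131), differ at 6 bases.
APOBEC3B: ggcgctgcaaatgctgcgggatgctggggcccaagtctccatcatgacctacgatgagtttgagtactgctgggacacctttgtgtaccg
APOBEC3A: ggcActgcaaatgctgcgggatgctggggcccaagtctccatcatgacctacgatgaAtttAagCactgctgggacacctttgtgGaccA

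A second group of near-identical sequence joins APOBEC3C, APOBEC3D and APOBEC3F. Coding bases 737 to 826 of APOBEC3D (exons 5 and 6, chr22:39029494-39031757) are identical to coding bases 698 to 787 of APOBEC3F (exons 5 and 6, chr22:39049556-39052137) and differ at 3 bases from coding bases 149 to 238 of APOBEC3C (exons 2 and 3, chr22:39015726-39017829).
APOBEC3D: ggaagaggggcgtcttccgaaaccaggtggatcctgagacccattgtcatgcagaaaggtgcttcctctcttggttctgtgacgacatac
APOBEC3F: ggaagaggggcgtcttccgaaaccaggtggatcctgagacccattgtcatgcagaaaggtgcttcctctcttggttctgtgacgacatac
APOBEC3C: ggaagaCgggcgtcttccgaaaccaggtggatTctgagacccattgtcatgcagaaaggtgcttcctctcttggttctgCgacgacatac

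The third pairing is at the amino-terminal end. The first 90 coding bases of APOBEC3F (exons 1 and 2, chr22:39040961-39043009) and APOBEC3G (exons 1 and 2, chr22:39077362-39079004) are identical, and those of APOBEC3D (chr22:39021520-39022894) differ at 19 bases.
APOBEC3F: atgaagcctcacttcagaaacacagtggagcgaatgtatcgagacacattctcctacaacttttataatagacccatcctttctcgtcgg
APOBEC3G: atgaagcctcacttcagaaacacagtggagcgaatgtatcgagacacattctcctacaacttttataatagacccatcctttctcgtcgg
APOBEC3D: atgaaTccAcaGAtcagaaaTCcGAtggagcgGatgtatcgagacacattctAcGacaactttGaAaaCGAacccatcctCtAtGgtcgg

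Over whole coding sequences, locally aligned, APOBEC3A and APOBEC3B were 94.6% identical over 571 bases. APOBEC3C was 90.5% identical to APOBEC3D and 90.3% to APOBEC3F, and APOBEC3D and APOBEC3F were 89.9% identical over 1119 bases. APOBEC3H was the most distant, at 60.1% to 65.0% identity with the other members over aligned stretches of at most 296 bases. In windows of 100 bases the picture differed from that of overall identity. That length was chosen here, as the read length is not given in the sources used. Of all distinct 100-base windows in the GENCODE transcripts of a gene, 25.1% of those of APOBEC3B, 18.4% of APOBEC3A, 13.3% of APOBEC3F, 8.73% of APOBEC3D and 5.05% of APOBEC3G occurred without mismatch in another member, whereas none of the 2815 windows of APOBEC3C and none of the 1392 windows of APOBEC3H did. Counting AL022318.4 as well, 80.2% of APOBEC3D windows were shared. Overlapping gene models, such as APOBEC3A with APOBEC3B and AL022318.4 with APOBEC3D, can share windows because they hold the same bases.

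The deposited counts are estimates that need not be whole, and they differed between members. Of the 4 counts of APOBEC3C 3 were whole numbers, and so were those of APOBEC3H, which were 1, 1, 0 and 0. None of the 4 counts of APOBEC3B, APOBEC3D, APOBEC3F or APOBEC3G was whole, and the whole counts of APOBEC3A were its 2 zeros. Over all genes, between 88.2% and 88.9% of the counts in a library were whole, and between 66.9% and 68.6% of those above 0 (within 0.001 of a whole number). Summed over the members, the control libraries held 2903 and 2434.8 counts and the CBX7 libraries 3156 and 2803.0. AL022318.4, chosen after its values were seen because its reads can be shared, took 0 and 4.18 counts in control cells against 4.98 and 0 in CBX7 cells. APOBEC3B-AS1, an antisense gene at the end of APOBEC3B, and the pseudogene APOBEC3AP1 were at 0 in all 4 libraries. Whether counting used the strand is not given in the sources used here.

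Library totals ranged from 20800910 to 25135488 counts, and the limit behind a count of 0, taken as 3 counts, was 0.119 to 0.144 CPM (the count scaled by library size). Intervals and limits from counts cover counting error only. CBX7 checked the labels, at 10.9 and 9.67 CPM in control cells against 1774 and 1595 CPM in CBX7 cells (log2 fold change 7.35 ± 0.18, SE, adjusted p = 0.000584, edgeR), where transcripts of the introduced and the resident gene cannot be told apart. Of the bladder and epithelial markers, KRT7 stood between 1197 and 1465 TPM and VIM, a mesenchymal filament, between 2206 and 2757 TPM, while the basal keratins KRT5 and KRT14 were at 0 and the urothelial uroplakins UPK1A, UPK1B, UPK2 and UPK3A had at most 3 counts in any library. PPARG (22.8 to 25.9 TPM) and FOXA1 (6.78 to 9.36 TPM), factors of the urothelial programme, were measured. KRT8 and KRT18 stood between 853 and 1293 TPM, while KRT20, TP63 and CDH1 had at most 2 counts in any library. Of the 10 markers tested, 0 were called, where 0.0202% of all genes tested were. An unadjusted p under 0.05 (edgeR) was reached by 2, where 4.74% of all genes tested reached it. These were KRT19 at a log2 fold change of 1.35 ± 0.23 (SE) and GATA3 at 2.28 ± 0.56, both named after their values were seen. GATA3 had 3 and 4 counts in control cells against 14 and 22 in CBX7 cells. Leukocytes hold high APOBEC3 levels, and of 13 leukocyte markers 4 were at 0 in all libraries, PTPRC, which defines them, had 1 count in 1 library, and the summed level of 8.4 to 13.7 TPM came mostly from CD68 (6.29 to 11.5 TPM), a lysosomal protein. CD8A had 24 to 33 counts and CD14 14 to 29 counts in each library. CD68 had a log2 fold change of -0.60 ± 0.20 (unadjusted p = 0.026, adjusted p = 0.916, edgeR), and the part of other cell types in the member values was not tested. Within groups, genes differed between the 2 libraries with deposited gene length (Spearman -0.488 between the control and -0.703 between the CBX7 libraries, over 11077 genes). The effect of removing this trend is given below for APOBEC3B, APOBEC3F and APOBEC3G. For the other tested members it moved the log2 fold change from 0.11 to 0.08 (APOBEC3C) and from 0.17 to 0.13 (APOBEC3D).

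APOBEC3C, a single-domain enzyme with weak activity on retroviral DNA, was the most abundant member. Its level was 37.5 and 38.2 TPM in the control libraries and 33.8 and 41.9 TPM in the CBX7 libraries, so that the CBX7 libraries lay on either side of the control libraries. As counts it had 1671 and 1422 in control cells against 1793 and 1659.8 in CBX7 cells. APOBEC3B, a nuclear enzyme with a pair of domains, came next at 32.2 and 34.4 TPM in control and 30.1 and 34.1 TPM in CBX7 cells, from 815.8, 729.7, 923.9 and 769.9 counts. APOBEC3B was below APOBEC3C in 4 of 4 libraries, at 0.814 to 0.902 of its level in TPM and 0.665 to 0.739 of its count per deposited gene length. Averaged over the 4 libraries, APOBEC3C ranked 3563rd and APOBEC3B 4026th from the top among the 26229 genes with a TPM above 0.

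APOBEC3G, the member known best for blocking HIV-1 that lacks Vif, was the third in every library. Its level was 9.57 and 6.43 TPM in control cells against 8.39 and 9.52 TPM in CBX7 cells, with control replicate 2 the low one. APOBEC3B exceeded it by 3.37 to 5.35 times. The difference between the control libraries was larger than counting allows, with 218 against 122 counts and a log2 ratio of 0.65 after scaling (95% Clopper-Pearson interval 0.33 to 0.98). Of the 10 such comparisons between libraries of 1 group, over the 5 measured members, 3 left 0 outside the interval, the others being APOBEC3B and APOBEC3F in CBX7 cells. Of all genes tested with at least 20 counts in a group, 29.4% did so in control cells and 61.3% in CBX7 cells.

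APOBEC3D and APOBEC3F, both with a pair of domains and both able to restrict HIV-1, were close to each other. APOBEC3D stood at 2.93 and 6.42 TPM in control cells against 3.14 and 5.58 TPM in CBX7 cells. APOBEC3F stood at 4.31 and 3.32 TPM in control cells against 5.54 and 3.93 TPM in CBX7 cells. APOBEC3F was therefore the higher of the pair in replicate 1 of both groups and APOBEC3D in replicate 2 of both groups, and in control replicate 2 APOBEC3D was level with APOBEC3G, at 0.998 of it. The order of the levels was APOBEC3C, APOBEC3B and APOBEC3G in all 4 libraries, and that of APOBEC3D and APOBEC3F could not be told by TPM.

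**Figure D2:**
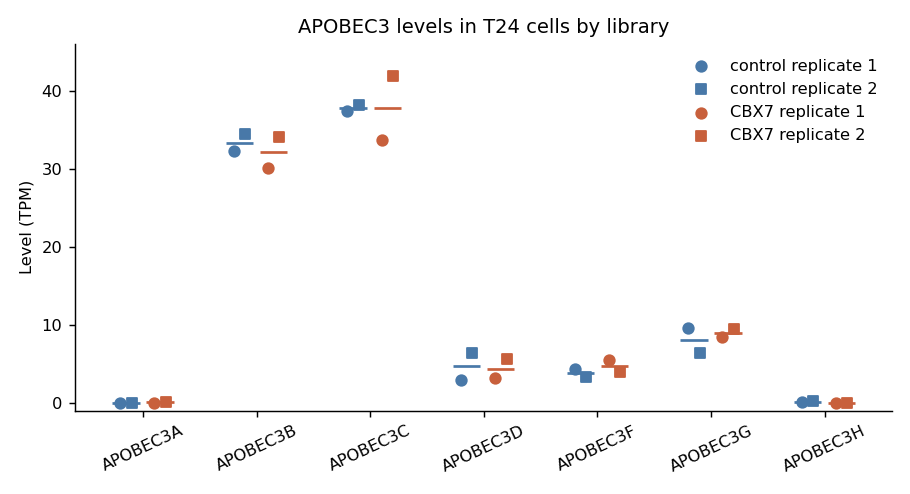
Level of each member (TPM) in the control libraries (blue) and the CBX7 libraries (orange), with circles for replicate 1, squares for replicate 2 and bars for the mean of each group. APOBEC3B and APOBEC3C lie between 30.1 and 41.9 TPM, APOBEC3G between 6.43 and 9.57 TPM, and the libraries of both groups overlap for each of these.

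The same swap was in the counts, though smaller on the side of APOBEC3D. APOBEC3D had 96.9 and 88.6 counts in control and 100.8 and 114.9 counts in CBX7 cells, and APOBEC3F had 101.1 and 71.1 counts in control and 119.6 and 74.7 counts in CBX7 cells. The control libraries of APOBEC3D were at 4.07 and 4.24 CPM, while their TPM values differed more than 2-fold. A count divided by its TPM gives the transcript length used for the TPM, up to a factor for each library that was taken here from 607 genes with 1 annotated transcript. For APOBEC3D this implied length was 1917 and 952 bases in the control libraries and 1562 and 1352 bases in the CBX7 libraries, where the deposited gene length is 2515 bases. The highest was 2.01 times the lowest, a spread that 0.926% of 11444 genes with at least 50 counts and 1 TPM in each library reached. APOBEC3F, with a deposited length of 4496 bases, had implied lengths of 1051 to 1476 bases, a 1.40-fold spread that 7.91% of these genes reached. APOBEC3B, APOBEC3C and APOBEC3G kept theirs within 1.05 times. By count per deposited length, APOBEC3D was above APOBEC3F in 4 of 4 libraries, by 1.51 to 2.75 times. The deposited length of APOBEC3F stands further above its implied lengths than that of APOBEC3D does. Dividing by deposited length therefore lowers APOBEC3F more than APOBEC3D.

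**Figure D3:**
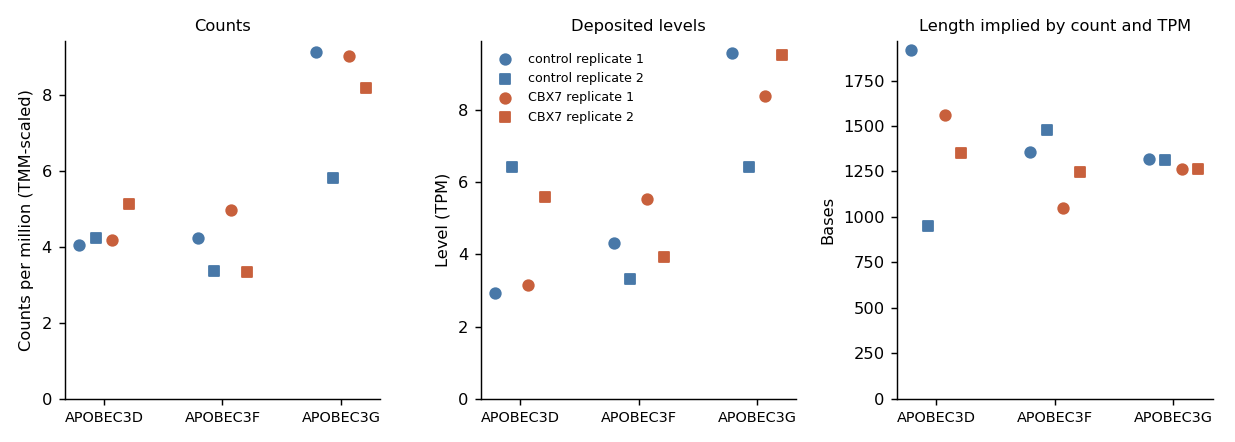
APOBEC3D, APOBEC3F and APOBEC3G in each library (colours and symbols as in the plot of levels) as TMM-scaled CPM, as deposited TPM and as the length in bases implied by count and TPM. The implied length of APOBEC3D runs from 952 to 1917 bases, while that of APOBEC3G stays between 1261 and 1319 bases.

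APOBEC3A, an interferon-inducible enzyme that is a strong mutator of DNA, had 0 and 0 counts in control cells against 1.02 and 1.02 counts in CBX7 cells. APOBEC3H, the most divergent member, had 1 and 1 counts in control and 0 and 0 counts in CBX7 cells. Both groups are at or under 3 counts for each, so no fold is given and a difference was not detectable at this depth. In the 2 control libraries, where APOBEC3A was at 0, APOBEC3B was at least 195-fold and 218-fold higher per deposited length than the 3 counts that a 0 allows in each library. In the 2 CBX7 libraries, where APOBEC3H was at 0, APOBEC3B was at least 142-fold and 171-fold higher than that limit. Of the APOBEC3A windows, 18.4% also occur in APOBEC3B, so the split of reads between these genes rests on the remaining windows. This share pools all transcripts, including those of APOBEC3A that run on into APOBEC3B. It can therefore hold the same bases listed under both genes as well as like sequence.

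As shares of the summed APOBEC3 TPM, APOBEC3C took 43.1% ± 0.26 in control and 42.9% ± 1.67 in CBX7 cells (SD, n = 2 libraries each, as for the shares that follow). APOBEC3B took 38.0% ± 1.04 and 36.5% ± 0.91, APOBEC3G 9.14% ± 2.70 and 10.2% ± 0.25, APOBEC3D 5.30% ± 2.71 and 4.87% ± 1.40, and APOBEC3F 4.36% ± 0.88 and 5.49% ± 1.92. APOBEC3B and APOBEC3C together took 80.5% and 81.6% in the control libraries and 78.9% and 79.9% in the CBX7 libraries. APOBEC3A and APOBEC3H each stayed under 0.22% in every library. On the scale of counts per deposited length, the shares averaged over the 4 libraries became 50.1% for APOBEC3C, 35.5% for APOBEC3B, 9.47% for APOBEC3G, 3.24% for APOBEC3D and 1.63% for APOBEC3F. The leading pair and the third member kept their places, and the share of APOBEC3F changed the most in proportion. Among the 5 measured members, the deposited length of APOBEC3F stands furthest above the lengths implied by count and TPM.

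**Figure D4:**
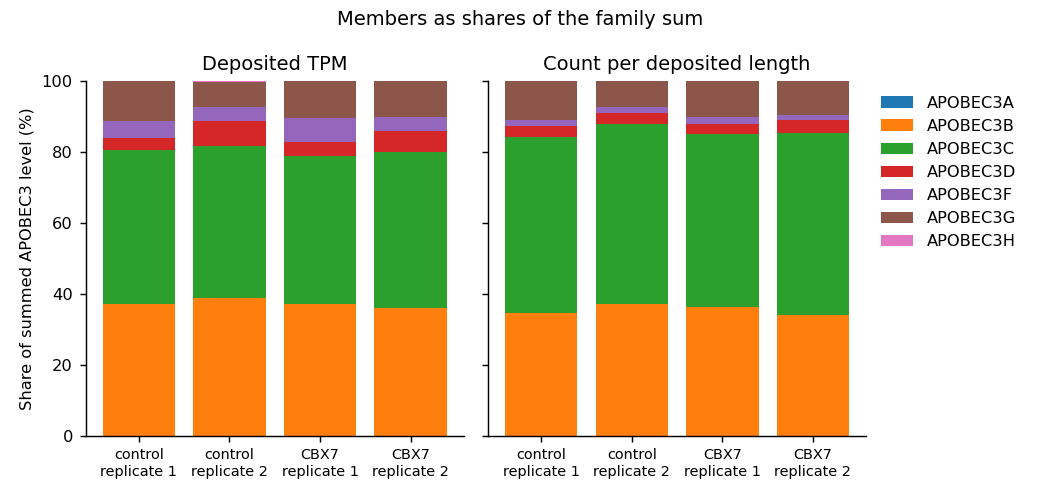
Share of each member in the summed APOBEC3 level (%) for each library, from the deposited TPM (left) and from counts per deposited gene length (right). APOBEC3B and APOBEC3C fill 78.9% to 81.6% of each bar on the left and 84.2% to 87.8% on the right.

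The summed APOBEC3 level was 86.6 and 89.0 TPM in control cells against 80.9 and 95.1 TPM in CBX7 cells. The means were 87.8 ± 1.68 and 88.0 ± 10.0 TPM (SD, n = 2 libraries each), with the CBX7 libraries on either side of the control libraries. Their difference of 0.27 TPM gave p = 1.0 in an exact two-sided permutation test, where 2 against 2 libraries allow no p under 0.33.

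Whether CBX7 changed the RNA of the family was tested gene by gene with edgeR over 14862 genes. Of the 7 members 5 passed the filter on low counts and 0 were called at an adjusted p of 0.05, where 0.0202% of all genes tested were called, which is 3 genes: CBX7, and JAG2 and EEF1A2, named after their values were seen. None of the 5 members had an unadjusted p under 0.05, where 4.74% of all genes did, and 0 members were called by DESeq2, where 0.451% of genes were, or by limma on log2 TPM, where 0.0147% were. The log2 fold changes, as CBX7 minus control, were 0.08 ± 0.13 (SE) for APOBEC3B, 0.11 ± 0.13 for APOBEC3C, 0.17 ± 0.22 for APOBEC3D, 0.13 ± 0.28 for APOBEC3F and 0.20 ± 0.25 for APOBEC3G, with adjusted p = 0.951 for all but APOBEC3F, at 0.953 (edgeR). Their median was 0.13, beside 0.0017 over all genes tested.

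The 95% confidence intervals of these log2 fold changes set what the data leave possible. They ran from -0.26 to 0.41 for APOBEC3B and from -0.21 to 0.42 for APOBEC3C. For the lower members they were wider, from -0.37 to 0.70 for APOBEC3D, from -0.57 to 0.82 for APOBEC3F and from -0.43 to 0.83 for APOBEC3G. With a control library left out the intervals widened, reaching 1.34 for APOBEC3G and 1.21 for APOBEC3F, both without control replicate 1, and 1.07 for APOBEC3D without control replicate 2. Over both such fits they spanned -0.64 to 0.80 for APOBEC3B and -0.66 to 0.87 for APOBEC3C, and the lower limits reached -0.83 for APOBEC3G and -0.90 for APOBEC3F. The interval of the APOBEC3D difference in log2(TPM + 1) ran from -1.09 to 0.99.

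In scaled counts, APOBEC3C was the only one of the 5 tested members whose groups did not overlap, with 70.0 and 67.7 CPM in control cells against 74.2 and 74.3 CPM in CBX7 cells. Of all genes tested, 15.4% had CBX7 libraries wholly above the control libraries, and in TPM the APOBEC3C groups did overlap. APOBEC3B had 34.2 and 34.8 CPM in control and 38.3 and 34.5 CPM in CBX7 cells, with CBX7 replicate 1 above the rest. Its direction turned to a log2 fold change of -0.01 once the length trend of every library had been removed. APOBEC3G had 9.14 and 5.81 CPM in control and 9.03 and 8.19 CPM in CBX7 cells. Without control replicate 2, the low library, its log2 fold change was -0.09, and with the length trend removed it was 0.10. APOBEC3F had 4.23 and 3.38 CPM in control and 4.97 and 3.36 CPM in CBX7 cells, replicate 1 being the higher in both groups, and its log2 fold change was -0.18 without CBX7 replicate 1 and -0.02 without control replicate 2, and 0.21 with the length trend removed. On the log2(TPM + 1) scale, differences were -0.05 for APOBEC3B, -0.01 for APOBEC3C, -0.05 for APOBEC3D, 0.25 for APOBEC3F and 0.17 for APOBEC3G, so that 3 of the 5 members had the opposite sign to their counts.

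**Figure D5:**
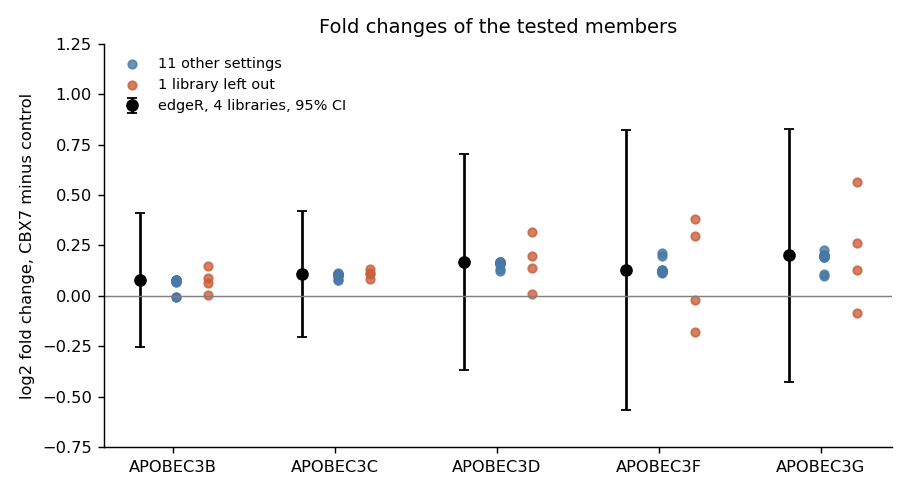
log2 fold change of each tested member, CBX7 minus control: black points with 95% confidence intervals from edgeR on all 4 libraries, blue points from 11 other settings, orange points with 1 library left out. Every interval includes 0, and leaving out 1 library moves APOBEC3F between -0.18 and 0.38 and APOBEC3G between -0.09 and 0.56.

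Of the relatives outside the cluster, APOBEC1, APOBEC2 and APOBEC4 were at 0 counts in all 4 libraries. SYNCRIP, an RNA-binding cofactor of APOBEC1 editing, stood at 62.6 to 85.1 TPM with a log2 fold change of -0.05 ± 0.13 (SE), and RBM47, another cofactor, at 0.17 to 0.46 TPM with -0.47 ± 0.37. Neither was called.

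The genes that act on the uracils made by APOBEC3 enzymes were all measured. Of 23 genes of uracil repair and lesion bypass, 0 were called in either direction, with a median log2 fold change of 0.015. PARP1, which senses strand breaks, had a log2 fold change of 0.01 ± 0.12, and APEX1, the endonuclease that cuts at the site left once uracil is removed, 0.03 ± 0.15. Of 24 cell-cycle and Polycomb-related regulators connected with APOBEC3B transcription, 0 were called, with a median of 0.046. MYBL2, which acts with the DREAM and MuvB complexes, stood at 0.15 ± 0.15 and TFDP1, the partner of E2F factors, at 0.06 ± 0.12.

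The list counts stand beside 0.0202% of all genes called, so a count of 0 is not particular to a list. Of 12 genes of the NF-kB and protein kinase C pathways, 0 were called, with a median log2 fold change of -0.016. These pathways drive APOBEC3B in other cells, though not every listed gene does so. NFKB2 stood at 0.16 ± 0.14 and NFKBIA, the inhibitor that NF-kB itself induces, at 0.12 ± 0.15. Of 24 tested genes of interferon signalling and its targets, 0 were called, with a median of -0.044. JAK1, a kinase of the interferon receptors, stood at -0.32 ± 0.18. ISG15, an interferon-induced ubiquitin-like protein named here after its values were seen, had the largest difference of the list, 0.63 ± 0.26, with 76.8 and 62.8 CPM in control cells against 134.6 and 81.8 CPM in CBX7 cells (unadjusted p = 0.056, adjusted p = 0.951, edgeR).

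Among the genes beside the cluster, 1 of 14 tested was called, CBX7 itself. CBX7 was the gene introduced, so its call does not describe the neighbourhood. Of the others, 2 had an unadjusted p under 0.05 (edgeR), where 4.74% of all genes tested did. They were PDGFB and, beyond RPL3 and named after its values were seen, SYNGR1. The median log2 fold change of the list was 0.058. From one side of the cluster to the other, CBX6, another chromobox gene, stood at 0.05 ± 0.14, PDGFB, a growth factor subunit, at 0.37 ± 0.14 (unadjusted p = 0.037, adjusted p = 0.951, edgeR) and RPL3, a ribosomal protein gene, at 0.10 ± 0.19. SYNGR1, which encodes a synaptic vesicle protein, stood at 0.77 ± 0.17 (unadjusted p = 0.0044, adjusted p = 0.490, edgeR), with 11.5 and 12.1 CPM in control cells against 22.2 and 18.0 CPM in CBX7 cells.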

How the data were processed

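RNA of T24 cells was sequenced in 2 control and 2 CBX7 libraries. The authors deposited 1 table with an estimated count (an expected count, not always whole) and a TPM value for each gene and library. It also holds group means of TPM, gene lengths and the authors' own comparison (a fold ratio with its log2 value, and p-values with their adjusted form), none of which was used apart from the lengths. The submitters' processing notes name cutadapt 1.9.1, HISAT2 2.0.1, HTSeq 0.6.1, DESeq2 and the build hg19. HTSeq gives whole counts by default, and the tool behind the fractional counts and TPM is not given in the sources used here. Of 60623 identifiers, 58516 (96.5%) are in GENCODE 29 on GRCh38, used for coordinates and sequences. It need not be the authors' annotation.

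Counts were rounded to whole numbers, filtered with filterByExpr, scaled by TMM and tested with edgeR 4.0.16 (glmQLFit and glmQLFTest, condition only, R 4.3.3), with Benjamini-Hochberg adjustment over all genes tested. A standard error was taken as the fold change on the log2 scale over the root of its F statistic. log2(TPM + 1) was tested with limma 3.58.1 for genes with a TPM of at least 1 in 2 libraries. DESeq2 1.42.0 was an alternative. On simulated counts for CBX7 against control, edgeR recovered 193 of 200 genes given a log2 change of 1.5, among 14682 in that step, with 4 false calls. The simulation gave every gene the same dispersion and no trend with gene length. It checks the code and does not measure power or error rates in the real libraries. Windows of 100 bases were compared without mismatch on the transcript strand. Coding sequences came from the protein-coding transcript tagged APPRIS principal, the longest where several were.

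The libraries of a group differed beyond sampling noise (chi-square per degree of freedom 4.54 for control, 37.7 for CBX7) and were counted separately. The members, gene lists and rule for named genes (the members, CBX7, the 2 most abundant genes of each list, list genes called, and cluster neighbours from CBX6 to RPL3) were chosen with earlier results of these data known. Some list genes are not reported here.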

Additional observations from a re-analysis of the deposited data

How the results depend on the processing

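No member was called in any of the 16 count fits, in which the adjusted p of the 5 tested members ranged from 0.256 to 1.0, nor with limma at a pseudocount of 0.1 or without a filter. The number of genes called over the whole table was far less stable. It was 3, and became 67 with DESeq2's Wald test, 265 without a filter on low counts, 361 with a replicate block, 270 with the replicate block and length correction together, 1 at an adjusted p of 0.01, and 37 to 5474 when 1 library was left out (54 and 37 without control replicate 1 and 2, 388 and 5474 without CBX7 replicate 1 and 2). In these fits the lone library is assumed to vary like the other group. Same-numbered libraries deviated together (correlation 0.305 over 14862 genes and 0.613 over the 11077 genes averaging 100 counts or more), but 2 pairs do not show that the numbers pair the samples. The replicate block gave 0 member calls as well. Signs of the members turned as follows. APOBEC3B had a log2 fold change of -0.0074 with the length correction and -0.0073 with the block added. With 1 library left out, APOBEC3B ranged from 0.0045 to 0.15, APOBEC3C from 0.08 to 0.13, APOBEC3D from 0.01 to 0.32, APOBEC3F from -0.18 to 0.38 and APOBEC3G from -0.085 (without control replicate 2) to 0.56. The causes were not tested. The joint share of APOBEC3B and APOBEC3C was 85.6% by count per deposited length, and 79.8% to 80.7% with 1 library left out. The difference in summed TPM ranged from -6.84 to 7.37 with 1 library left out, and was 1.00 and 0.98 from counts and whole counts per deposited length. Depth limits APOBEC3A and APOBEC3H, which no setting measured above 3 counts.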

Other observations

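Of 11 tested restriction factors outside the family, 0 were called by edgeR, with a median log2 fold change of 0.031 (CBX7 minus control). IFITM3, which blocks entry of enveloped viruses, stood at 475 to 605 TPM with a log2 fold change of 0.34 ± 0.21 (SE), and SERINC3, which lowers the infectivity of retroviral particles, at 41.0 to 66.7 TPM with -0.16 ± 0.15.

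The adenosine deaminases, which edit RNA where APOBEC3 enzymes edit single-stranded DNA, were present as ADAR, at 35.4 to 67.6 TPM, and ADARB1, at 36.5 to 51.2 TPM. Their log2 fold changes were -0.16 ± 0.22 and -0.02 ± 0.13, and neither was called. ADARB2 had 1 count in 1 library.

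Of the 24 regulators connected with APOBEC3B, CDKN1A, which encodes p21 and was picked out after its values were seen, had the only unadjusted p under 0.05 (edgeR). Of all genes tested, 4.74% had such a p. It stood at 22.6 and 21.5 CPM in control cells and 28.7 and 30.6 CPM in CBX7 cells, a log2 fold change of 0.43 ± 0.13 with adjusted p = 0.853 (edgeR).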
